A study of Brassica napus with 6 samples.

Results

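Chromosome A7 of oilseed rape (Brassica napus) was described gene by gene across 3 tissues of the hybrid HZ62. Its genes were taken as all identifiers that begin with ZS11A07 in the deposited normalized table, which gave 3478 of the 80932 genes listed there. Among the chromosomes, A7 was chosen by its measured share of genes highest in silique in these same libraries. All 3478 had a position in the deposited count table, on a chromosome whose gene models ran from 1 to 30113123 bp. The tissues were siliques of 3 to 5 cm, flower buds shorter than 2 mm and seedlings of 2 weeks, with 2 libraries of polyadenylated RNA each. All plants carried the genotype given as WT and grew at 22 °C for 16 h of light and 18 °C for 8 h of dark. Nothing in the labels ties the libraries of a tissue to separate plants, so p-values reflect how far these samples differed, and that spread may be technical. Positions are those of the count table, whose genome build is not given in the sources used.

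Brassica napus is an allotetraploid: it carries an A subgenome that came from Brassica rapa and a C subgenome that came from Brassica oleracea. The silique is the pod that forms from the pistil after pollination and holds the developing seeds. It therefore joins green pod wall, which photosynthesises, with embryo, endosperm and seed coat in 1 sample. The flower bud holds developing pollen and ovules, and the seedling is mostly leaf, stem and root. In whole tissues like these, fewer cells of a type and less RNA per cell cannot be told apart. The files do not pair identifiers with gene names, and 0 of the 3478 identifiers matched the reference table of named genes. Genes are therefore given by position, with few identifiers, and the tissues could not be checked against their marker genes.

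Of the 3478 genes, 237 had no read in any library and 788 had reads but did not pass the filter on low counts, with at most 86 reads over the 6 libraries. The 2453 tested genes (70.5%) held 99.7% of the reads of the chromosome. Another 817 gene models of A7 stood in the count table alone, all without reads. Over all genes of the normalized table, library depth was 12506762 and 10359099 reads in silique, 12614212 and 12543622 in flower bud, and 24110359 and 3973408 in seedling. The tests rest on the count table, whose totals were 2538852 to 15448095 reads. In every library between 81.0% and 89.7% of the values from 1 to 20 reads were even numbers, so reads were not independent of each other. The intervals and lower bounds given here cover counting error only and are too tight for that reason.

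Genes were called between 2 tissues at an adjusted p under 0.05 (edgeR quasi-likelihood test, Benjamini-Hochberg adjustment over all 34296 genes tested) and a log2 fold change of at least 1. A gene was counted as highest in a tissue when it was called higher there than in both other tissues. On A7, 171 of 2453 tested genes (6.97%) were highest in silique, beside 5.60% of all genes tested. In flower bud 196 were highest (7.99%, beside 8.34% of all genes), and in seedling 302 (12.3%, beside 13.4%). Because A7 was chosen by its silique share, that share is a description and carries no test. It ranked 2 among 13 chromosomes of the count table, after A2 with 6.99% and before A3 with 6.49%. With reads recovered from the normalized table, which covers 19 chromosomes, A7 ranked 1 with 7.13%, and A2 followed closely with 7.07%. A3 ranked 3 with 6.62% and C7 ranked 6 with 5.89%, beside 5.43% of all genes tested there. The excess over all genes in the count table was 1.38 percentage points. It was smallest without silique replicate 1, where 111 A7 genes (4.53%) were highest in silique beside 4.11% of all genes. The flower bud class shrank to 118 genes when flower bud replicate 1 was left out and to 119 when replicate 2 was.

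**Figure D1:**
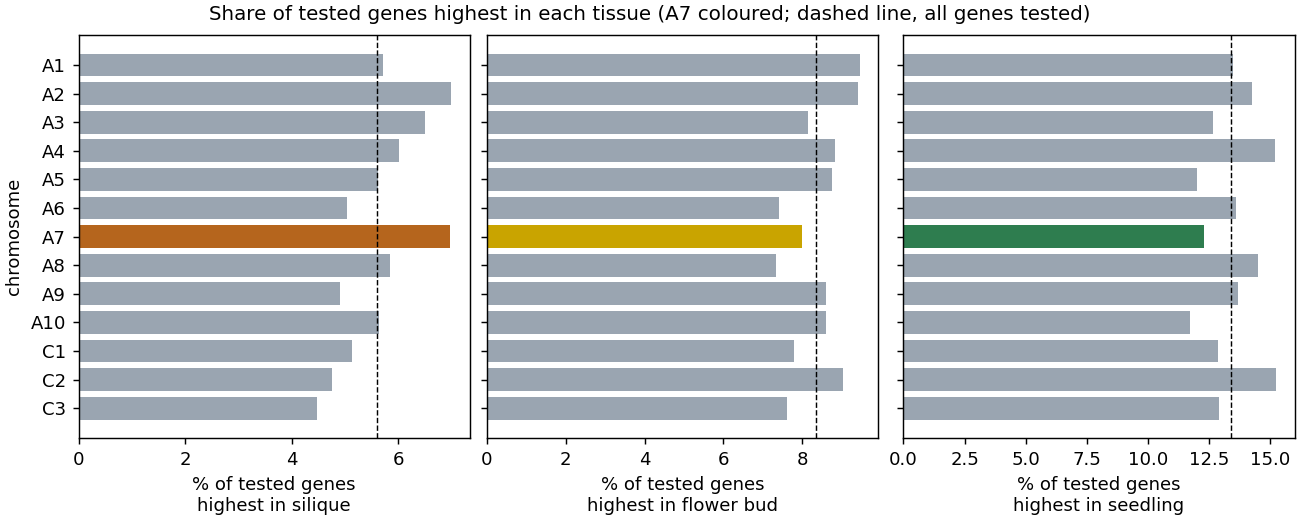
Share of tested genes (x axis, percent) that were highest in silique, flower bud and seedling on each of 13 chromosomes (y axis), with A7 coloured and all genes tested as a dashed line. A7 stood at 6.97% in silique, 7.99% in flower bud and 12.3% in seedling, above the line in silique and below it in flower bud and seedling.

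Genes highest in silique were not spread evenly along A7. Of the 171 genes, 106 (62.0%) started beyond 20 Mb, a stretch that held 48.4% of the tested genes. The share highest in silique was 8.92% beyond 20 Mb, 4.67% between 10 and 20 Mb and 6.13% in the first 10 Mb. By windows of 1 Mb with at least 20 tested genes, the fullest lay between 24 and 25 Mb, with 15 of 112 genes (13.4%). The window from 29 to 30 Mb followed at 12.2% (16 of 131), and that from 8 to 9 Mb at 12.0% (6 of 50). From 28 to 29 Mb the share was 11.7% (16 of 137), and from 22 to 23 Mb 11.5% (12 of 104). The first Mb held 1 gene highest in silique among 76 tested. Between 4 and 8 Mb only 37 of 148 gene models were tested and none was highest in silique, which is a stretch where 87 models had no read.

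The boundary at 20 Mb was set after the data were examined. Under 17 alternative settings the share beyond it stayed above the share before it, with a difference from 1.67 to 4.64 percentage points around the 3.78 found. The smallest difference came without silique replicate 1, where the shares were 5.39% beyond and 3.72% up to 20 Mb. The fullest window of 1 Mb was less stable: it remained at 24 to 25 Mb in 11 of 17 alternatives, and in 4 of the other 6 it lay before 20 Mb. It was the window from 2 to 3 Mb (8.20%) without silique replicate 1 and from 3 to 4 Mb (13.2%) without seedling replicate 1. The window from 8 to 9 Mb was fullest with limma at a pseudocount of 1 (12.0%) and with overlapping genes left out (14.6%). Beyond 20 Mb it moved to 29 to 30 Mb with limma at a pseudocount of 0.1 and to 22 to 23 Mb with each pair of tissues fitted alone. Windows with at least 10% of genes highest in silique were 5 of 26 on A7 (19.2%). On the other chromosomes of the count table, which holds 13 of the 19, they were 37 of 420 (8.81%). A2 had a larger part, with 8 of 31 windows. A richer far end was not restricted to A7 either. The ends of 12 chromosomes were compared, without C3, where 3882 genes were tested beside 4490 with recovered reads. Of these 12, 7 had a higher share in the last 10 Mb than in the first. C1 showed the largest such difference, with 8.28% against 3.63%, and on A7 the values were 8.97% and 6.13%. No test of these differences was made, since neighbouring genes are not independent.

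**Figure D2:**
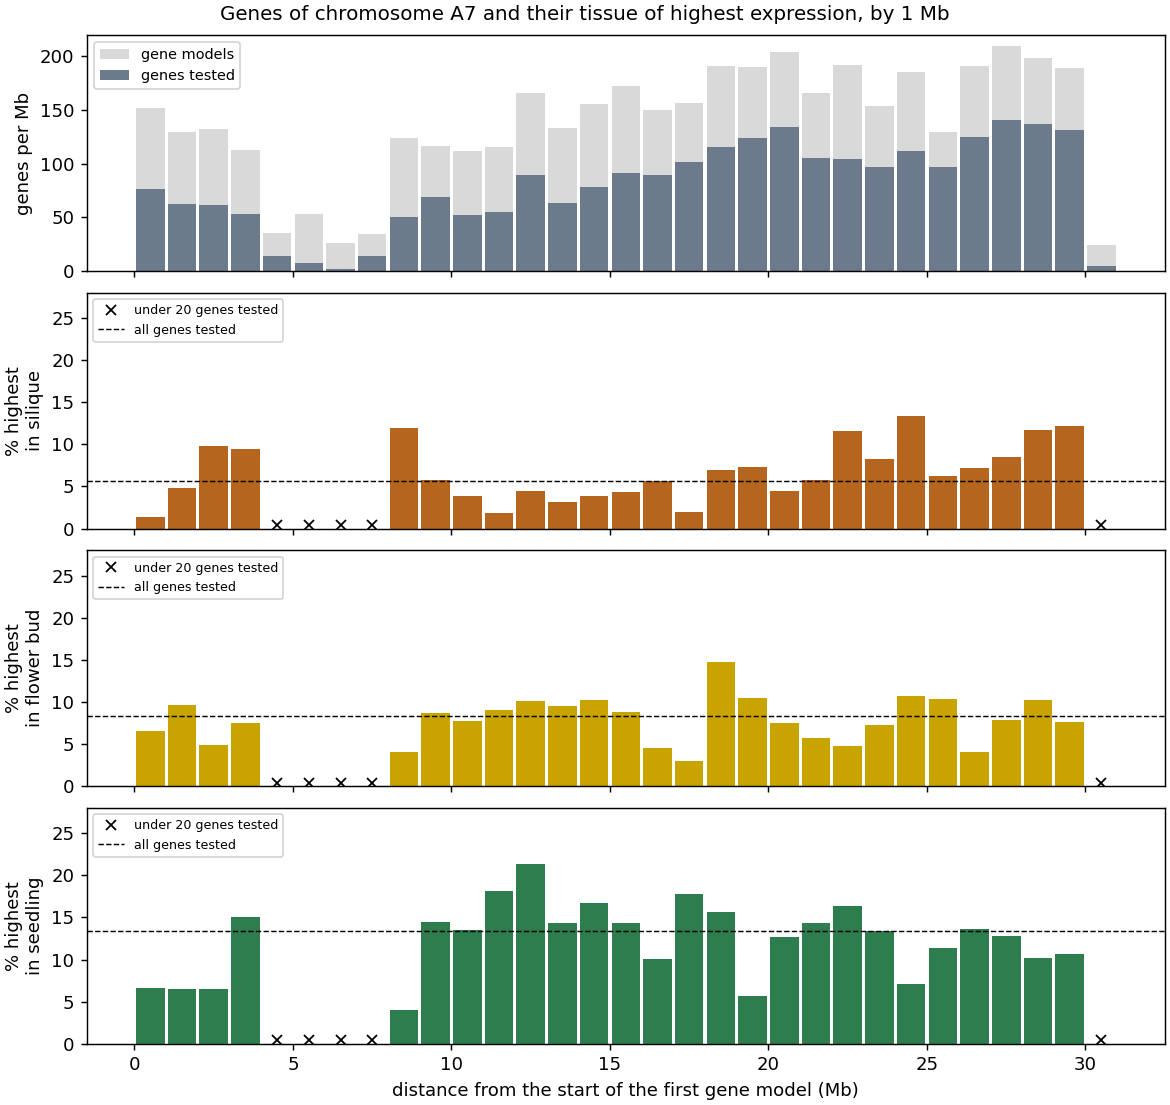
Gene models and tested genes per Mb (top, y axis in genes), and the percent of tested genes highest in silique, flower bud and seedling (lower panels), against the distance from the first gene model (x axis, Mb); crosses mark windows under 20 tested genes and dashed lines all genes tested. Silique genes peaked at 13.4% between 24 and 25 Mb, flower bud genes at 14.8% between 18 and 19 Mb and seedling genes at 21.3% between 12 and 13 Mb.

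The other tissues peaked elsewhere, but their fullest windows were not recomputed under the alternative settings. Flower bud genes were densest between 18 and 19 Mb, with 17 of 115 tested genes (14.8%). Seedling genes were densest between 12 and 13 Mb, with 19 of 89 (21.3%), and rarest, among the 10 Mb blocks, in the first at 8.58%. The block from 10 to 20 Mb, which was lowest for silique, had the highest share of seedling genes among the 3 blocks, at 14.4%, and of flower bud genes, at 8.98%.

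The pair of comparisons that define the silique class was also taken singly; since the boundary was set on that class, they largely restate it. Beyond 20 Mb, 25.2% of tested genes were higher in silique than in seedling, against 14.9% up to 20 Mb; over all genes tested it was 16.2%. Likewise 20.9% were higher in silique than in flower bud beyond 20 Mb, against 13.0% before it, and 14.5% over all genes. Lower genes did not follow this: 15.2% and 16.6% were lower in silique than in seedling beyond and up to 20 Mb, and 10.3% and 13.4% lower than in flower bud. Over the alternative settings the difference in higher genes ranged from 7.52 to 10.8 percentage points against seedling and from 5.55 to 8.94 against flower bud. Between flower bud and seedling these shares lay closer, with 23.7% and 21.2% higher in flower bud beyond and up to 20 Mb.

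The A7 reads were also split at 20 Mb. Since the boundary was set on genes highest in silique in these same libraries, the split largely restates that class. Genes beyond 20 Mb took 55.3% and 55.1% of the A7 reads in the silique libraries, against 49.8% and 49.9% in flower bud and 49.1% and 48.0% in seedling. The silique libraries stood above all 4 others without overlap. Without the A7 gene that had most silique reads, the values were 54.1% and 54.0% in silique, 49.6% and 49.6% in flower bud and 49.1% and 48.0% in seedling.

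As a part of the whole library, A7 gave 4.78% (Wilson 95% interval 4.76 to 4.79) of the reads in silique replicate 1 and 4.77% (4.76 to 4.78) in silique replicate 2. The flower bud libraries stood at 4.39% (4.37 to 4.40) and 4.37% (4.36 to 4.38), and the seedling libraries at 4.53% (4.53 to 4.54) and 4.68% (4.66 to 4.70). Because A7 was chosen by its genes highest in silique in these libraries, its read shares are a description. A5 showed a larger excess, with 4.75% and 4.77% in silique, 4.29% and 4.26% in flower bud, and 4.02% and 3.87% in seedling. The silique mean over the mean of the other libraries was 1.16 on A5, 1.06 on A7 and 1.06 on A2. On A7 silique was highest in both libraries, and the seedling libraries differed from each other by more than their intervals. Without the gene with most silique reads, the silique libraries came to 4.65% each and the seedling replicate 2 library, at 4.68%, stood above them. Without the 10 A7 genes with most reads, the means fell from 4.77% to 4.39% in silique, from 4.38% to 4.20% in flower bud and from 4.61% to 3.84% in seedling. Those genes were ranked by reads summed over all 6 libraries, where the deepest, seedling replicate 1, weighs most. Their removal therefore bears most on seedling and is no even check of the order of tissues.

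**Figure D3:**
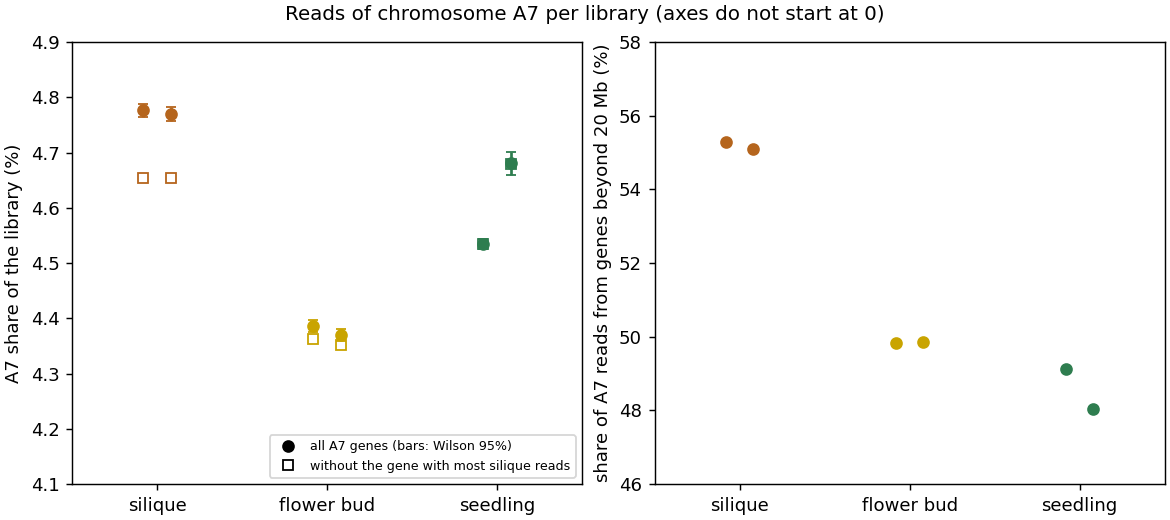
Share of each library's reads that fell on A7 (left, percent, bars are Wilson 95% intervals, open squares leave out the gene with most silique reads) and share of A7 reads from genes beyond 20 Mb (right, percent), for the silique, flower bud and seedling libraries; neither axis starts at 0. The silique libraries lay highest in both panels, at 4.78% and 4.77% on the left and 55.3% and 55.1% on the right.

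Levels are given as CPM, reads of the count table scaled to each library's total and adjusted by TMM (trimmed mean of M values). They are not divided by length, so genes are compared between tissues and not with each other. Among the 171 genes highest in silique, the mean silique level ranged from 1.69 to 1784 CPM with a median of 13.3. The smaller of the log2 fold changes against flower bud and seedling had a median of 2.18 with genes at 0 reads set to their lower bound, and it reached 2, a 4-fold difference, in 90 genes. No read was found in flower bud for 39 of them, in seedling for 43, and in both for 30. The replicates of the tissue itself lay within 1.5-fold of each other in 155 of the 171 silique genes and 178 of the 196 flower bud genes, but in 182 of the 302 seedling genes. Together these genes took 14.4% of the A7 CPM in silique, 4.05% in flower bud and 2.40% in seedling. The 196 flower bud genes took 10.1% of the A7 CPM in flower bud. The 302 seedling genes took 46.8% of it in seedling.

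Flower bud against seedling was not used to form the silique class. There, 33 of the 171 genes (19.3%) were higher and 17 (9.94%) lower in flower bud, and 121 were not called. Over all genes tested, 21.1% were higher and 21.8% lower. The silique class shares the flower bud and seedling libraries with this comparison, so the counts are given side by side only. The spans of the 171 genes, introns included, had a median of 2106 bp, beside 2581 bp for all tested A7 genes. Strand and overlap were close to the rest: 45.6% lay on the plus strand, beside 48.6% of all tested A7 genes, and 17.5% overlapped another gene model, beside 19.2%.

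**Figure D4:**
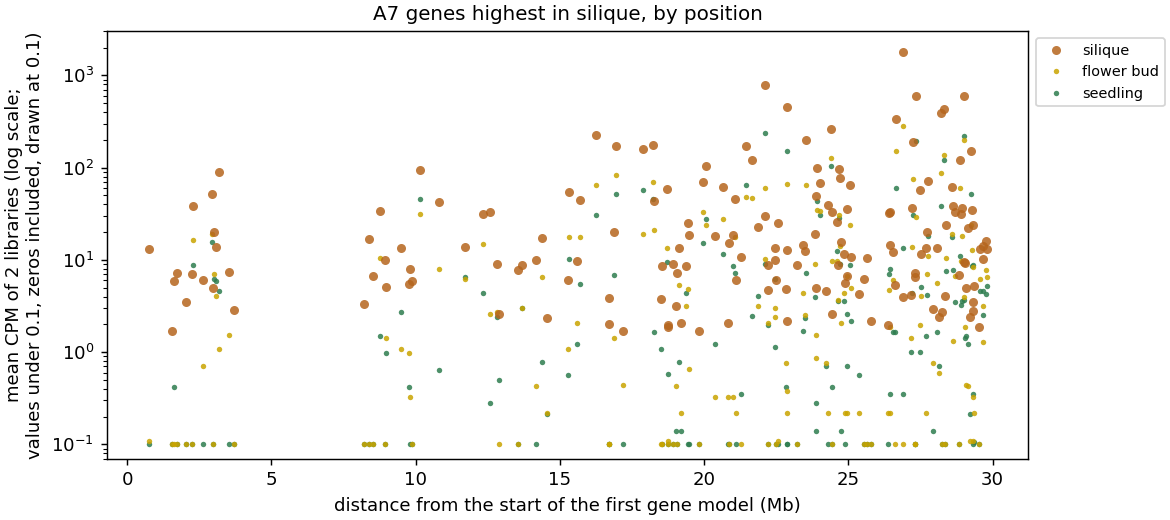
Mean CPM of 2 libraries (y axis, log scale, values under 0.1 drawn at 0.1) in silique, flower bud and seedling for the 171 A7 genes highest in silique, against the distance from the first gene model (x axis, Mb). Silique means ran from 1.69 to 1784 CPM, and no gene of the class lay between 4 and 8 Mb.

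A few genes beyond 20 Mb carried most of the silique reads of the class. Of the 20 genes with most silique reads, 16 lay beyond 20 Mb, and these included all of the first 9, while the next started at 16239248. Of the 35 genes of the class with at least 50 CPM in silique, 25 lay beyond 20 Mb. That stretch held 62.0% of the class and 48.4% of all tested A7 genes. The genes with most reads are described by position, and were singled out after their values were seen. The gene at 26898789 to 26905533 (plus strand) had 1823 and 1744 CPM in silique, 307 and 251 CPM in flower bud, and 10.7 and 16.1 CPM in seedling. It gave 2.54% and 2.43% of all A7 reads in the silique libraries and 17.3% of the CPM of the class. All 3 tissues were apart without overlap, in the order silique, flower bud, seedling. Since another gene model overlaps it, which of the pair the reads came from is uncertain.

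The second gene by reads, at 22122941 to 22140983 (minus strand), had 766 and 790 CPM in silique, 56.3 and 64.0 CPM in flower bud, and 180 and 299 CPM in seedling. Here flower bud was the lowest tissue. The gene at 27330071 to 27332176 (minus strand) showed the same order, with 609 and 574 CPM in silique, 32.1 and 26.2 CPM in flower bud, and 207 and 178 CPM in seedling. By contrast the gene at 28218316 to 28219884 (plus strand) was lowest in seedling, with 408 and 381 CPM in silique, 83.5 and 90.1 CPM in flower bud, and 41.4 and 35.3 CPM in seedling. Flower bud and seedling were close in the gene at 28323531 to 28324384 (minus strand), which had 423 and 440 CPM in silique, 129 and 145 CPM in flower bud, and 120 and 122 CPM in seedling. In these 4 genes the silique libraries lay above all others. The genes highest in silique thus differed in which tissue came second.

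ZS11A07G037780 (27495397 to 27501499, minus strand) had the largest smaller fold, the lesser of the fold changes against flower bud and seedling, among genes highest in silique with at least 50 CPM there. It had 59.0 and 56.2 CPM in silique, 1.75 and 2.17 CPM in flower bud, and 0.989 and 1.01 CPM in seedling. Its log2 fold change was 5.84 ± 0.27 (SE) against seedling and 4.87 ± 0.22 against flower bud. ZS11A07G004390 (3181905 to 3183788, plus strand) was second by that measure and lay near the other end of the chromosome. It had 93.6 and 84.1 CPM in silique, 0.874 and 1.30 CPM in flower bud, and 9.18 CPM and 0 in the seedling libraries. Against flower bud the log2 fold change was 6.33 ± 0.57 and against seedling 3.66 ± 0.47. The seedling value rests on replicate 1, as replicate 2 had no read.

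Reads in silique alone were seen in 29 A7 genes, which had no read in the other 4 libraries and normalized values of 1 or more in each silique library. They were 0.834% of the A7 genes, beside 0.713% of all genes listed. All 29 were among the 171 genes highest in silique. Their reads summed to between 26 and 252 over both silique libraries, with a median of 96, so none was abundant. Of these, 11 lay in the first 10 Mb, 7 between 10 and 20 Mb and 11 beyond. Those blocks held 619, 1258 and 1601 of all A7 genes, and 25, 40 and 106 of the 171 genes highest in silique. The gene with most reads of this kind lay at 8392699 to 8393283 (minus strand) and had 15.8 and 17.5 CPM in silique. It was followed by the gene at 20864773 to 20866581 (minus strand), with 14.6 and 15.7 CPM. The same count for flower bud was also 29, with 3 in the first 10 Mb. For seedling it was 5; seedling replicate 2 had the fewest reads of the 6 libraries, and the part of depth in that count was not tested.

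Neighbouring tested genes were both highest in silique in 16 places, 9 of them beyond 20 Mb. In 10 of the 16 no other gene model lay between the pair. The orientation was mixed, with 6 pairs on the same strand, 5 convergent and 5 divergent, and the gap had a median of 4112 bp. At least 3 such genes stood in a row in 2 places. The first run lay between 18730072 and 18738242, where 3 genes together had 66.6 and 57.9 CPM in silique, 12.7 and 14.7 CPM in flower bud, and 14.1 and 6.05 CPM in seedling. Its first gene gave most of this, with 62.4 and 54.4 CPM in silique, while the other 2 had between 12 and 18 reads in each silique library. The second run lay between 24412998 and 24439055, with 317 and 284 CPM in silique, 128 and 142 CPM in flower bud, and 130 and 81.6 CPM in seedling. Its gene at 24412998 to 24424105 held 281 and 249 CPM of the silique sum, and the gene at 24435874 to 24439055 held 33.4 and 33.2 CPM.

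Runs were more frequent for seedling, with 9 of at least 3 genes, and flower bud had 2. The seedling run with most reads, 4 genes between 11366033 and 11470437, had 125 and 127 CPM in silique, 79.1 and 80.6 CPM in flower bud, and 551 and 778 CPM in seedling. The seedling class was also the largest of the 3, and runs were not set against an expectation. Adjacent pairs were 9.36% of the number of genes for silique, 10.2% for flower bud and 18.2% for seedling. The classes themselves made up 6.97%, 7.99% and 12.3% of the tested A7 genes, and pairs were not set against an expectation either.

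Set against seedling, silique had 487 higher A7 genes (19.9%, beside 16.2% of all genes tested) and 390 lower (15.9%, beside 18.0%). Over all A7 genes tested, the log2 fold change had a median of 0.16, beside 0.02 for all genes. Among higher genes the median was 1.82 and among lower genes -2.14, with genes at 0 reads set to their lower bound. Of the higher genes 64 had no read in seedling, and of the lower genes 28 had none in silique. ZS11A07G027610 (21666979 to 21667518, minus strand) had 124.8 and 118.0 CPM in silique, 49.4 and 45.1 CPM in flower bud, and 4.87 CPM and 0 in seedling. It came second after ZS11A07G037780 among the genes eligible to be named, which overlap no other gene model, but its seedling value rests on replicate 1, since replicate 2 had no read. ZS11A07G008980 (9872465 to 9874659, minus strand) had 0 reads in silique and flower bud and 79.7 and 45.3 CPM in seedling, so it was at least 230-fold lower in silique, from the lower seedling library. ZS11A07G026690 (21051819 to 21055626, plus strand) had 0.960 and 1.46 CPM in silique, 3.93 and 3.25 CPM in flower bud, and 247 and 310 CPM in seedling. On the normalized values limma called 626 higher and 250 lower at a pseudocount of 1, and 651 and 269 at 0.1.

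Relative to flower bud, 412 A7 genes were higher in silique (16.8%, beside 14.5% of all genes tested) and 291 lower (11.9%, beside 13.0%). The median log2 fold change of A7 genes was 0.08, beside -0.01 over all genes, and 1.98 among higher and -2.32 among lower genes. ZS11A07G004390, given above, had the largest positive log2 fold change among the genes eligible to be named, at 6.33, and ZS11A07G037780 followed at 4.87. ZS11A07G028050 (21888826 to 21890809, minus strand) had 0 reads in silique and seedling and 190.5 and 230.1 CPM in flower bud, at least 966-fold lower in silique. ZS11A07G025140 (20299669 to 20300824, plus strand) had 0 reads in silique and seedling and 60.8 and 58.9 CPM in flower bud, at least 299-fold lower in silique. Like the count of higher genes, the count of lower genes fell when any library of the pair was left out. It was 182 when silique replicate 1 was dropped and 193 for silique replicate 2, and 165 when flower bud replicate 1 was dropped and 175 for flower bud replicate 2.

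Flower bud against seedling, the comparison that did not bear on the choice of the chromosome, gave 550 higher A7 genes (22.4%, beside 21.1% of all genes tested) and 520 lower (21.2%, beside 21.8%). Both shares lay near the background. ZS11A07G034230 (25435837 to 25438532, plus strand) had 508 and 539 CPM in flower bud, while seedling had no read, and was at least 2733-fold higher (edgeR adjusted p = 3.57e-07). In silique it had 2 reads in replicate 1 and none in replicate 2. ZS11A07G028050, described above, was at least 1025-fold higher in flower bud than in seedling (edgeR adjusted p = 6.42e-07). Among lower genes, ZS11A07G023900 (19674762 to 19678071, plus strand) had 0 reads in flower bud and 520 and 1370 CPM in seedling. It was at least 3185-fold lower (edgeR adjusted p = 2.54e-06), and in silique it stood at 50.6 and 46.6 CPM. ZS11A07G008980 was at least 278-fold lower in flower bud than in seedling (edgeR adjusted p = 6.11e-06). With limma the balance moved to 787 higher and 340 lower at a pseudocount of 1, and 836 and 374 at 0.1.

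**Figure D5:**
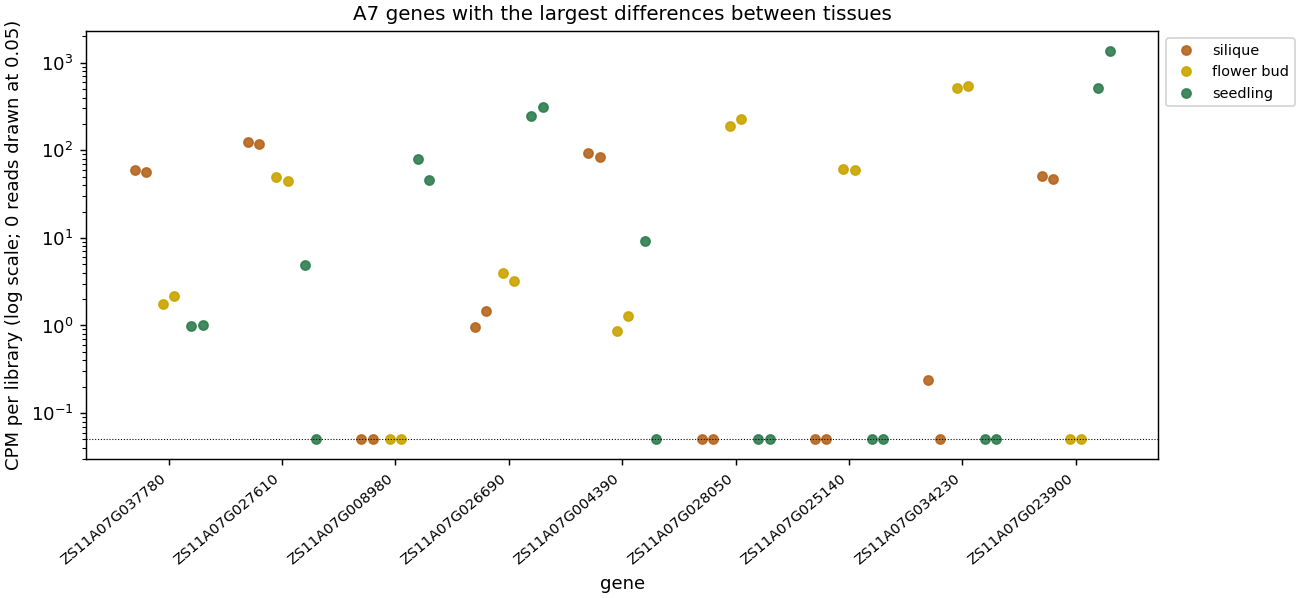
CPM in each of the 6 libraries (y axis, log scale, 0 reads drawn at 0.05) for the 9 A7 genes named by identifier (x axis), with silique, flower bud and seedling from left to right within each gene. ZS11A07G028050 and ZS11A07G025140 had reads in flower bud alone, and ZS11A07G008980 in seedling alone.

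Genes lowest in 1 tissue, called lower there than in both others, were also counted on A7. In silique 62 were lowest (2.53%, beside 3.58% of all genes tested), in flower bud 215 (8.76%, beside 8.13%) and in seedling 260 (10.6%, beside 9.14%). Genes lowest in seedling made up 12.9% beyond 20 Mb against 8.46% up to that point, and genes lowest in flower bud 10.6% against 7.04%. Each of these classes requires a call of higher in silique, which also forms the silique class. Since the boundary was set on that class, these shares partly restate it. From 22 to 25 Mb, 17.3% of 313 tested genes were lowest in seedling and 11.2% highest in silique, while 1 gene was lowest in silique. That stretch takes in the fullest window for silique, so these shares partly follow from where it was drawn. In all, 1444 A7 genes (58.9%, beside 56.5% of all genes) were called in at least 1 pair of tissues and 1009 in none.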

How the data were processed

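Gene expression was measured by RNA sequencing in 6 libraries, 2 each of silique, flower bud and seedling. The submitters' processing notes name HISAT2, SAMtools, GATK, featureCounts and edgeR; their versions, settings and roles, and whether counting used strand, are not given in the sources used. Counts, as deposited, are whole reads for each gene model in a featureCounts layout, per the file headers. That table holds 65535 gene models on 13 chromosomes and unplaced sequences, so comparisons with all genes tested cover those. C3 seems to be there in part only, with 3882 genes tested beside 4490 from recovered reads. The normalized table covers 19 chromosomes. The deposited normalized table holds a signal that the authors scaled by TMM, per the name of the deposited file. Signals were whole multiples of 1 step in each library, so reads were recovered; 100% came out whole within 0.05 reads, and all 51324 genes shared with the count table gave equal counts.

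Counts were tested with edgeR 4.0.16 in R 4.3.3 (TMM factors, filterByExpr with a minimum count of 10, glmQLFit and glmQLFTest, all 6 libraries in 1 fit with 3 residual degrees of freedom, no replicate block), and p-values were adjusted over all 34296 genes tested. SE is the fold change divided by the root of F. Where a tissue had 0 reads, folds were computed against 3 counts over both its libraries, from the lower library of the other tissue for named genes. The code was tested on simulated data. Named identifiers have the 2 largest and 2 smallest fold changes per comparison among called genes with at least 50 CPM, no overlap between libraries or with another gene model, plus the 2 genes highest in silique with the largest smaller fold. Alternatives were relative log expression factors, DESeq2 1.42.0, other filters, a replicate block, each library left out, recovered reads, limma 3.58.1 on log2(normalized value + 1) or + 0.1 (genes at 1 or more in at least 2 libraries), pairs fitted alone, other window sizes and, added after the data were examined, halved counts. The chromosome and all rules were chosen with earlier results of these data known. Python 3.11.15, SciPy 1.17.1 and pandas 2.3.3 were used.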

Additional observations from a re-analysis of the deposited data

How the results depend on the processing

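All 192 recomputed fold changes of the named genes kept their direction and their call. These genes were picked for the largest fold changes in these same libraries, so that outcome was likely from the start. The share of A7 genes highest in silique stayed above that of all genes in all 16 alternatives, by 0.417 to 1.70 percentage points, and at least 109 of the 171 genes remained in the class. With limma on the normalized values (pseudocount 1), 250 genes were lower in silique and 340 lower in flower bud than in seedling; with a pseudocount of 0.1, 836 were higher in flower bud. The cause was not tested. Their higher calls made up 71.5% of calls in silique against seedling (55.5% with edgeR) and 69.8% in flower bud against seedling (51.4%), and the median of all genes moved to 0.30 and 0.48. The share highest in silique beyond 20 Mb was 7.24% with DESeq2 and 6.89% without a filter, which tests more genes; the share up to 20 Mb was 3.90% without a filter.

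With 1 library left out, genes higher in silique numbered 360 to 609 against seedling and 285 to 446 against flower bud, and genes lower in silique 298 to 388 and 165 to 331. Genes higher in flower bud than in seedling were 389 to 666 and lower ones 465 to 532. Genes highest in silique were 111 to 187, in flower bud 118 to 210 and in seedling 240 to 305. The fullest window held 8.20% to 14.3%, and the shares beyond and up to 20 Mb were 5.39% to 9.76% and 3.72% to 5.61%. The lone library of a tissue is then assumed to vary like the others. The A7 share of reads was 4.77% to 4.78% in silique, 4.37% to 4.39% in flower bud and 4.53% to 4.68% in seedling with 1 library left out. By construction it fell to 4.65% and 4.39% in silique, 4.36% and 4.20% in flower bud and, for the second, 3.84% in seedling without the gene with most silique reads or without the 10 genes with most reads. The replicate block gave 156 genes highest in silique and changed no count by over 1.5 times. Deviations of same-numbered libraries from their tissue means had correlations from -0.02 to 0.01 across genes. These values showed no shared deviation, but cannot tell whether same-numbered libraries were collected or prepared together. No comparison at matched depth was run.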
